A study of Mus musculus with 2 samples.

Results

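Kainate-type glutamate receptors are built from the subunits encoded by *Grik1* to *Grik5* and act together with the auxiliary proteins encoded by *Neto1* and *Neto2*. These 7 genes, taken by their symbols, are described here in single nuclei of the mouse olfactory bulb (OB), out of 31055 rows in each table, of which 31053 are genes and the others are reporter sequences. All 7 were present in both libraries, and none was chosen by its level.

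Kainate receptors are cation channels opened by glutamate that sit on both sides of the synapse. The subunits encoded by *Grik1*, *Grik2* and *Grik3* can form working channels without the others, whereas those encoded by *Grik4* and *Grik5* need one of the former as a partner and give the channel a high affinity for kainate. The Neto proteins are single-pass membrane proteins that bind the channel, slow its closing and alter its trafficking. In the OB, mitral and tufted cells are the glutamatergic projection neurons (PNs), and granule and periglomerular cells, most of which release GABA, are the local partners they excite.

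To label OB cells by their target, a retrogradely transported adeno-associated virus carrying a nuclear GFP under the CAG promoter (retroAAV-CAG-H2B-GFP) was placed in adult wild-type (WT) mice, and GFP-expressing nuclei of the bulbs were sorted by fluorescence-activated nuclei sorting (FANS) and sequenced by the 10x droplet method. In the first library the injected site was the anterior olfactory nucleus (AON), in the second it was the posterior piriform cortex (pPCx). Both groups carried the same virus, and no group lacked it. The pPCx library came, by the study's methods, from 1 mouse given a small injection volume, whereas the number of animals behind the AON library is not given in the sources used here. CAG drives expression in most cell types, so that a GFP-positive nucleus need not belong to a PN. With 1 library per injection site there was no replicate, and hence no test between the sites. Levels are unique molecular identifiers (UMIs) per 1000000 UMIs of the class (CPM), and every interval given is a 95% interval for counting error only.

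After removal of barcodes with fewer than 1000 genes, 102 AON and 63 pPCx nuclei remained, which shared 0 barcodes. Nuclei were called PNs where the UMIs of *Slc17a7*, *Slc17a6*, *Tbx21* and *Cdhr1* exceeded those of *Gad1*, *Gad2* and *Slc32a1*, and GABAergic where the reverse held with 3 or more UMIs of the latter. This gave 25 PNs, 47 GABAergic and 30 remaining nuclei in the AON library, against 59 PNs, 2 GABAergic and 2 remaining nuclei in the pPCx library. Median depth was 38129 UMIs in AON PNs, 34306 in pPCx PNs, 26129 in AON GABAergic nuclei and 14336 in remaining AON nuclei. A 7-gene PN marker list, which includes the 4 classifying genes, stood at 3129 CPM in AON PNs and 3253 CPM in pPCx PNs. In AON GABAergic nuclei it stood at 66.9 CPM. An 8-gene GABAergic list, which likewise includes *Gad1*, *Gad2* and *Slc32a1* of the class rule, stood at 69.8, 47.2 and 6272 CPM. Both contrasts are thus in part set by the rule. The AON PNs were the less uniform class. A single nucleus held 24.6% of their UMIs, 8 of the 25 rested on fewer than 3 excitatory marker UMIs, and 4 of the 25 carried more astrocyte-marker than excitatory-marker UMIs, as did 4 of the 59 pPCx PNs. Of the remaining AON nuclei, 16 were led by astrocyte markers, 8 by oligodendrocyte markers and 6 by neither. The GABAergic list stood at 754 CPM, 685 CPM and 4425 CPM in these 3 groups, so that the remaining class was not free of GABAergic markers and the last group held them near the level of the GABAergic class. No doublet caller was run, and the sort included a gate against doublets.

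Positions are those of GENCODE M21 (GRCm38), and each member lies on a chromosome of its own. *Grik1* (ENSMUSG00000022935) spans chromosome 16, 87895900 to 88290265, *Grik2* (ENSMUSG00000056073) chromosome 10, 49094833 to 49788766, and *Grik3* (ENSMUSG00000001985) chromosome 4, 125490700 to 125714173. *Grik4* (ENSMUSG00000032017) spans chromosome 9, 42518135 to 42944493, and *Grik5* (ENSMUSG00000003378) chromosome 7, 25009849 to 25072346. None of the genes annotated as overlapping a member was itself counted in the tables.

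Since *Grik2* and *Grik3* were both higher in the GABAergic nuclei than in the PNs of either library, the sequence just before their RefSeq start sites is shown for this pair, which parted in the remaining AON nuclei, with each GC box (GGGCGG, or CCGCCC where it lies on the opposite strand) in capitals. The window runs from 250 to 51 bases before the start, 5′ to 3′ on the gene's own strand (RefSeq, GRCm38.p6), at chr4:125490446-125490645, plus strand, for *Grik3* and at chr10:49788805-49789004, minus strand, for *Grik2*.
Grik3: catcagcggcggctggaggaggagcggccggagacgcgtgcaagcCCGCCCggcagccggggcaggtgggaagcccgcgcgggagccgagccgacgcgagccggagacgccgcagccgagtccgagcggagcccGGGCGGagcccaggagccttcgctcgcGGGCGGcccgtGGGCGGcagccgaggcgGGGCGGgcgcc
Grik2: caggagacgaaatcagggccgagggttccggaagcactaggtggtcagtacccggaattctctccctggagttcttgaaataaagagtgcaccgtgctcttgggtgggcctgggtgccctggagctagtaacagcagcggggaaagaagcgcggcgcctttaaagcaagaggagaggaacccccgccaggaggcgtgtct
The *Grik3* window held 5 GC boxes and was 81.5% G or C, and the *Grik2* window held 0 GC boxes at 59.0% G or C. Over all 32851 windows of this length the median was 51.5% G or C, and 24.6% held a GC box. Neither window held the homeodomain core TAATTA (4.19% of all windows) or the T-box motif GGTGTGA (2.71% of all windows) on either strand, and the E-box CANNTG (59.0% of all windows) occurred 1 time in the *Grik3* window and 0 times in the *Grik2* window. No searched motif was in both. *Grik1* and *Neto1* had no entry in the promoter table.

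*Grik1*, a subunit that forms channels without a partner, was higher in PNs than in the other classes. Its level was 751 CPM (701 to 803) in AON PNs and 365 CPM (341 to 391) in pPCx PNs, against 40.9 CPM (30.6 to 53.6) in AON GABAergic nuclei and 37.5 CPM (22.2 to 59.3) in remaining AON nuclei. Across single AON PNs it ran from 0 through a median of 655 to 2065 CPM, and across pPCx PNs from 0 through 284 to 877 CPM. The highest of the 47 GABAergic nuclei reached 494 CPM, and their median was 0. Single nuclei of the classes therefore overlapped, with 14 of 25 AON PNs and 14 of 59 pPCx PNs above the highest GABAergic nucleus. A *Grik1* UMI was found in 84.0% of AON PNs, 91.5% of pPCx PNs and 38.3% of GABAergic nuclei. With every nucleus thinned to 5000 UMIs, which left out 3 AON PNs and 2 remaining AON nuclei, the shares were 78.4%, 69.0% and 15.5%. As a gauge of RNA from other cells, *Reln*, a PN marker that the class rule did not use, was thinned in the same way to 81.8% of AON PNs, 100% of pPCx PNs and 9.77% of GABAergic nuclei, and *Eomes*, another such marker, to 22.5%, 24.4% and 0.378%. *Thy1*, the other gene of the PN list outside the rule, hardly set the classes apart, at 16.6%, 9.07% and 9.93%. By pooled level, *Reln* stood at 2536 CPM in AON PNs and 38.5 CPM in GABAergic nuclei, and *Eomes* at 62.6 CPM and 0.787 CPM. *Thy1* stood at 30.4 CPM in AON PNs, 19.8 CPM in pPCx PNs and 19.7 CPM in GABAergic nuclei. What part of the *Grik1* UMIs of GABAergic nuclei was RNA from other cells was not tested.

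*Grik2*, also able to form channels without a partner, had the opposite distribution. It stood at 1636 CPM (1567 to 1708) in GABAergic nuclei and at 1207 CPM (1111 to 1309) in remaining AON nuclei, but at 77.9 CPM (62.4 to 96.0) in AON PNs and 69.1 CPM (58.9 to 80.7) in pPCx PNs. Single GABAergic nuclei ranged from 0 through a median of 1134 to 5675 CPM. The pPCx PNs stayed between 0 and 258 CPM, with a median of 65.0, and 39 of the 47 GABAergic nuclei lay above the highest of them. Among AON PNs the median was 36.4 CPM and the highest value 1496 CPM. That highest value came from a nucleus with 21 *Grik2* UMIs, 1 excitatory marker UMI and 54 astrocyte-marker UMIs. Thinned shares of nuclei with a *Grik2* UMI were 86.3% in GABAergic nuclei, 31.3% in AON PNs and 29.1% in pPCx PNs. Those of *Meis2*, a GABAergic marker outside the class rule, were 97.9%, 14.3% and 3.94%.

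*Grik2* was also high in nuclei with glial markers. Remaining AON nuclei led by astrocyte markers held 624 CPM (531 to 729), with 14 of 16 nuclei showing a UMI. Those led by oligodendrocyte markers held 2095 CPM (1887 to 2319), or 1768 CPM with equal weight for each nucleus, with a UMI in all 8. A single nucleus of the latter gave 163 of the 579 *Grik2* UMIs of the remaining class. *Grik1* stood at 15.8 CPM and 73.6 CPM in these groups. Single nuclei ran from 402 to 1452 CPM of the GABAergic list in the former, where most of it was *Meis2*. They ran from 0 to 1908 CPM in the latter, where most of it was *Synpr*. The part of GABAergic RNA in the *Grik2* levels was not tested.

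*Grik3*, the remaining subunit that forms channels without a partner, was found mostly in GABAergic nuclei. They held 240 UMIs or 189 CPM (166 to 214), against 8 UMIs or 7.16 CPM (3.09 to 14.1) in AON PNs, 7 UMIs or 3.01 CPM (1.21 to 6.19) in pPCx PNs and 3 UMIs or 6.25 CPM (1.29 to 18.3) in remaining AON nuclei. A UMI was seen in 32 of 47 GABAergic nuclei, whose median was 96.8 CPM and whose highest value was 1686 CPM. The highest PN value was 45.1 CPM, and 29 of the 47 GABAergic nuclei lay above it. Only 1 UMI of *Grik3* was seen in each pPCx PN that had any.

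*Grik4*, a high-affinity subunit that needs a partner, was rare in most nuclei. The level was 82.3 CPM (66.4 to 101) in AON PNs, 18.0 CPM (13.0 to 24.4) in pPCx PNs, 29.9 CPM (21.2 to 41.0) in GABAergic nuclei and 45.9 CPM (28.7 to 69.4) in remaining AON nuclei. The median nucleus of every one of these 4 classes had 0 UMIs, and 9 of 25 AON PNs had any. In the GABAergic class 1 nucleus held 20 of the 38 UMIs.

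*Grik5*, the other high-affinity subunit, differed least between these 4 classes. It stood at 116 CPM (98.4 to 137) in GABAergic nuclei, 71.3 CPM (60.9 to 83.0) in pPCx PNs, 66.7 CPM (45.6 to 94.2) in remaining AON nuclei and 49.2 CPM (37.1 to 64.1) in AON PNs. The intervals of pPCx PNs, remaining AON nuclei and AON PNs each overlapped those of the others. Medians over nuclei were 94.5 CPM in GABAergic nuclei, 76.6 CPM in pPCx PNs and 32.0 CPM in AON PNs. Nuclei led by astrocyte markers held 98.7 CPM (63.9 to 146), those led by oligodendrocyte markers 3 UMIs or 17.0 CPM (3.50 to 49.6).

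**Figure D1:**
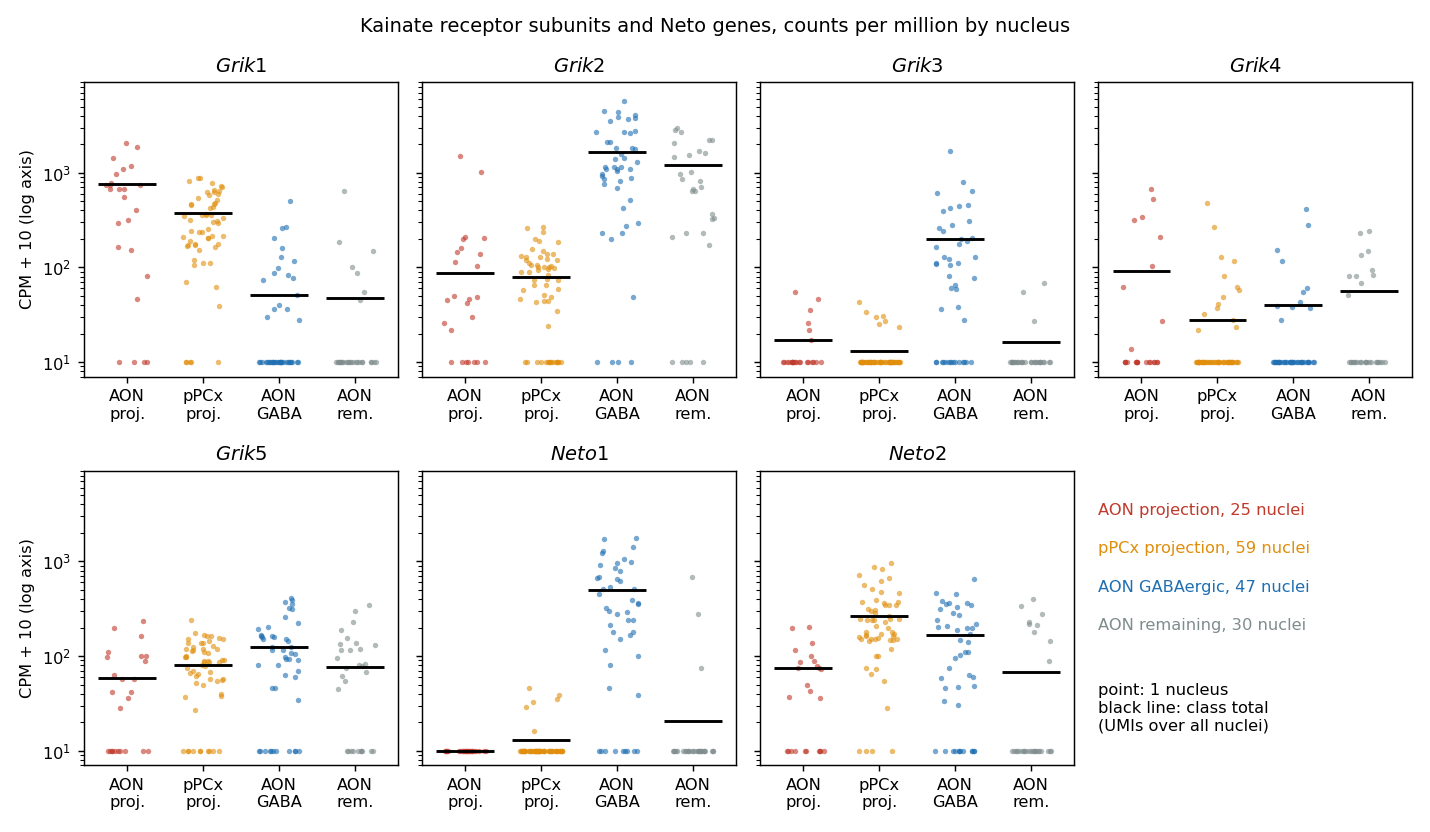
CPM of each of the 7 genes in single nuclei (points, CPM plus 10 on a log axis) for 25 AON PNs, 59 pPCx PNs, 47 AON GABAergic and 30 remaining AON nuclei, with the pooled level of each class as a black line. *Grik1* lines are highest in the PN classes, *Grik2* lines in GABAergic and remaining nuclei, and *Grik3* and *Neto1* points above 100 CPM lie mainly in the GABAergic class.

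The auxiliary genes also divided by class. *Neto1* (ENSMUSG00000050321) spans chromosome 18, 86394952 to 86506718, and *Neto2* (ENSMUSG00000036902) chromosome 8, 85636588 to 85700924. *Neto1* gave 626 UMIs or 492 CPM (455 to 533) in GABAergic nuclei, 5 UMIs or 10.4 CPM (3.38 to 24.3) in remaining AON nuclei, 7 UMIs or 3.01 CPM (1.21 to 6.19) in pPCx PNs and 0 UMIs in AON PNs, a count that allows up to 2.68 CPM. A *Neto1* UMI was present in 38 of 47 GABAergic nuclei, with a median of 289 CPM and a highest value of 1753 CPM. The highest of the 59 pPCx PNs had 36.2 CPM, and 36 of the 47 GABAergic nuclei exceeded it. *Neto1* was also at 0 UMIs in the nuclei led by astrocyte and by oligodendrocyte markers, which allows up to 11.8 CPM and 17.0 CPM.

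*Neto2* was present in all 4 of the larger classes and highest in pPCx PNs. Its level there was 252 CPM (232 to 273), against 157 CPM (136 to 180) in GABAergic nuclei, 65.3 CPM (51.2 to 82.1) in AON PNs and 58.4 CPM (38.8 to 84.4) in remaining AON nuclei, of which the last 2 overlapped. Single pPCx PNs ran from 0 through a median of 196 to 947 CPM, and single AON PNs from 0 through 32.7 to 192 CPM. No AON PN reached the pPCx median, and 30 of 59 pPCx PNs lay above the highest AON PN.

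Within single nuclei *Neto2* UMIs outnumbered *Neto1* UMIs in 55 of 59 pPCx PNs and 15 of 25 AON PNs, and the reverse was seen in 0 PNs, the others having neither. In GABAergic nuclei *Neto1* was ahead in 30 of 47 and *Neto2* in 9, and 32 nuclei carried both. Transcripts of both auxiliary genes were thus seen together in most GABAergic nuclei, but in 6 of 59 pPCx PNs and 0 of 25 AON PNs.

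**Figure D2:**
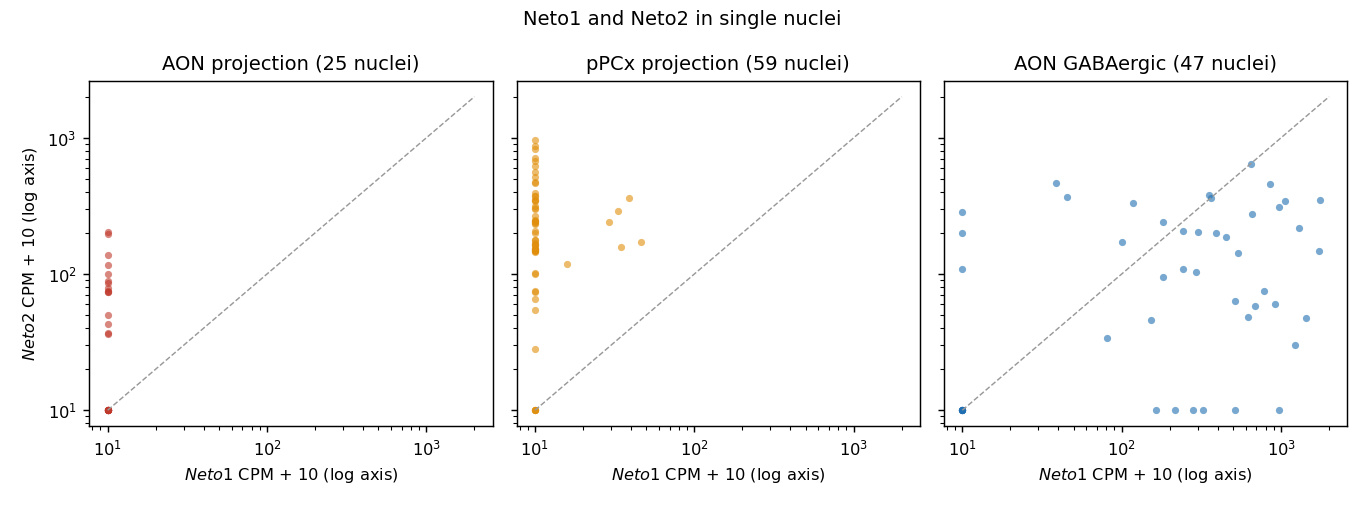
*Neto1* (horizontal) against *Neto2* (vertical) in single nuclei, as CPM plus 10 on log axes, for AON PNs, pPCx PNs and AON GABAergic nuclei, with the dashed line marking equal values. AON PNs all sit at 0 *Neto1*, and of the 47 GABAergic nuclei 38 have a *Neto1* UMI.

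Counted together, the subunit genes gave 967 CPM in AON PNs, 527 CPM in pPCx PNs, 2012 CPM in GABAergic nuclei and 1363 CPM in remaining AON nuclei. *Grik1* made up 77.6% (75.0 to 80.1) of the subunit UMIs of AON PNs and 69.4% (66.7 to 71.9) of those of pPCx PNs, but 2.03% (1.52 to 2.66) of those of GABAergic nuclei. *Grik2* made up 8.05%, 13.1% and 81.3% of the same totals. How completely each gene was captured as UMIs was not measured, so the shares order UMIs and not transcript levels of different genes. Only their change from class to class is compared.

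The exchange was visible nucleus by nucleus. *Grik1* UMIs outnumbered *Grik2* UMIs in 18 of 25 AON PNs and 51 of 59 pPCx PNs, and *Grik2* UMIs outnumbered *Grik1* UMIs in 42 of 47 GABAergic and 25 of 30 remaining AON nuclei. The pPCx library held only 2 GABAergic nuclei. Like the AON GABAergic nuclei, they held *Grik2* highest, then *Neto1* and *Grik3*, but the order below these differed. Their levels were 1240 CPM (974 to 1557) for *Grik2*, 486 CPM (326 to 698) for *Neto1*, 235 CPM (128 to 394) for *Grik3* and 218 CPM (116 to 373) for *Grik1*, the last from 1 nucleus with 13 UMIs. *Grik5* stood at 134 CPM and *Neto2* at 50.3 CPM, below *Grik1*, whereas both lay above *Grik1* in AON GABAergic nuclei. *Grik2* was ahead of *Grik1*, and *Neto1* ahead of *Neto2*, in each of the 2 pPCx nuclei.

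**Figure D3:**
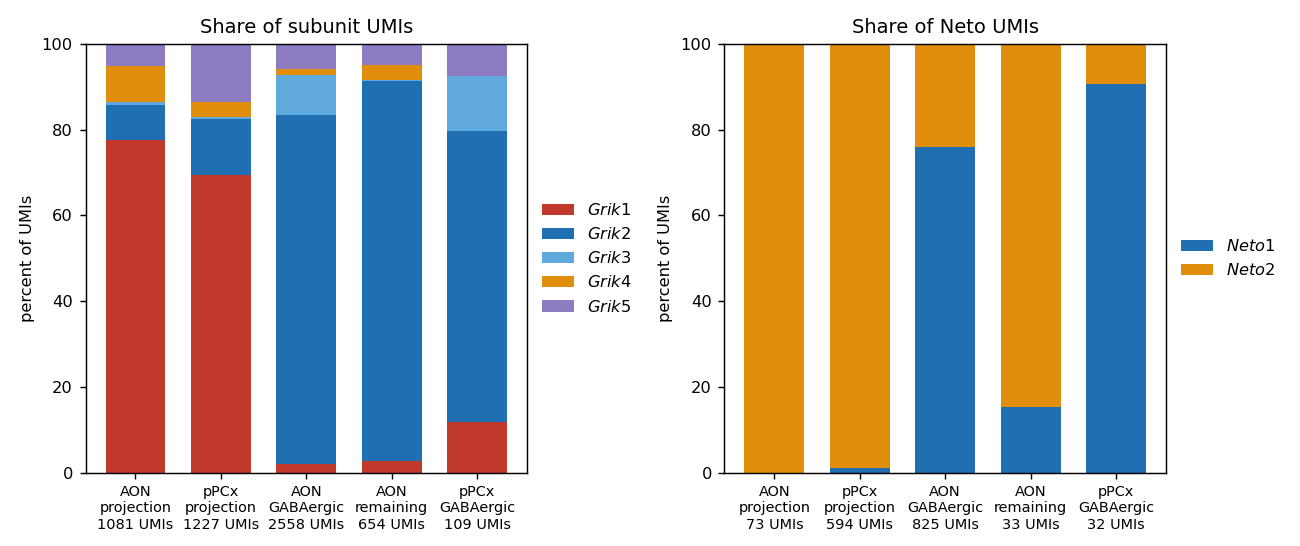
Percent of subunit UMIs given by each of the 5 subunit genes (left) and of Neto UMIs given by *Neto1* and *Neto2* (right), by class, with the UMIs behind each bar under it. *Grik1* fills 77.6% and 69.4% of the subunit bars of AON and pPCx PNs, and *Grik2* fills 81.3% of that of AON GABAergic nuclei.

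PNs and GABAergic nuclei of the AON library were then set against each other, a comparison within 1 library. *Grik1* was 18.4-fold (13.9 to 24.8) higher in PNs. *Grik2* was 21.0-fold (17.0 to 26.4) lower in PNs, *Grik3* 26.4-fold (13.2 to 61.8) lower and *Neto1* at least 183-fold lower, the last computed against the 3 UMIs that a count of 0 in the class allows. *Grik5* was 2.37-fold (1.72 to 3.29) lower and *Neto2* 2.40-fold (1.82 to 3.18) lower in PNs, and *Grik4* was 2.75-fold (1.87 to 4.13) higher. Of the 7 members, all with 20 or more UMIs over both classes, 2 were past 2-fold higher in PNs and 5 past 2-fold lower, where 15.2% of 9808 genes were higher and 16.1% lower. The median log2 ratio was -1.25 for the members and -0.06 for all genes.

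The pPCx PNs differed from the AON GABAergic nuclei in the same direction for the members of large ratio, in a comparison that shares its GABAergic nuclei with the one before and in which library and class cannot be told apart. *Grik1* was 8.93-fold (6.75 to 12.1) higher in the PNs. *Grik2* was 23.7-fold (20.1 to 28.0), *Grik3* 62.8-fold (30.0 to 158) and *Neto1* 164-fold (79.0 to 409) lower. *Neto2* was here 1.61-fold (1.37 to 1.90) higher in PNs, where the AON PNs had been lower. *Grik4* and *Grik5* were 1.66-fold (1.04 to 2.63) and 1.63-fold (1.30 to 2.05) lower. Of the 7 members 1 was past 2-fold higher and 3 past 2-fold lower, against 17.8% and 14.1% of 11501 genes. Median-of-ratios scaling moved all log2 ratios of this comparison by 0.16, and no member passed or lost 2-fold by it.

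GABAergic nuclei were also compared with the remaining nuclei of the AON library. *Neto1* was 47.3-fold (20.1 to 146) higher in the former, *Grik3* 30.2-fold (10.2 to 147) higher and *Neto2* 2.68-fold (1.80 to 4.14) higher. *Grik2* differed by 1.36-fold (1.24 to 1.49) and *Grik5* by 1.75-fold (1.18 to 2.64), while for *Grik1* and *Grik4* the interval of the ratio spanned 1, at 1.09 (0.627 to 1.98) and 0.652 (0.376 to 1.16). The 5 *Neto1* UMIs of the remaining class all lay in the 6 nuclei led by neither glial list. Of the 7 members 3 were past 2-fold higher and 0 past 2-fold lower, against 18.1% and 21.1% of 8926 genes, and median-of-ratios scaling moved all log2 ratios by 0.27, with which *Grik5* (log2 ratio 1.06) also passed 2-fold.

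The injection site was the comparison of the study. *Grik1* was 2.05-fold (1.87 to 2.26) and *Grik4* 4.56-fold (3.14 to 6.74) higher in AON than in pPCx PNs, and *Neto2* was 3.86-fold (3.02 to 4.99) higher in pPCx PNs. *Grik5* was 1.45-fold higher in pPCx PNs, an AON to pPCx ratio of 0.690 (0.499 to 0.942). *Grik2* did not differ beyond counting error, with a ratio of 1.13 (0.857 to 1.47). *Grik3* and *Neto1* had too few UMIs for a call (8 against 7, and 0 against 7). Of the 5 members with 20 or more UMIs, 2 were past 2-fold higher and 1 past 2-fold lower in AON PNs, where 6.66% of 11172 genes were higher and 9.82% lower. The *Grik1* ratio sat at the threshold, and its log2 value of 1.04 became 0.98 with median-of-ratios scaling and 0.93 with equal weight for each nucleus, both under 2-fold. These are ratios between libraries of 1 preparation each, so that site, animal and preparation cannot be told apart.

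**Figure D4:**
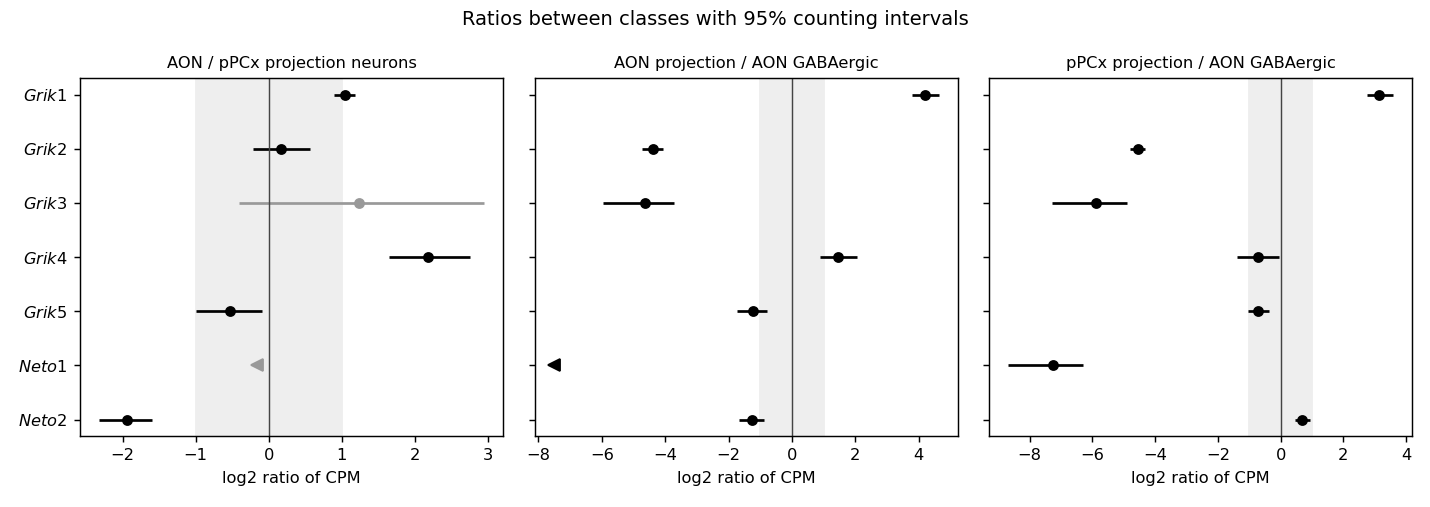
Log2 ratio of CPM for the 7 genes in AON against pPCx PNs, AON PNs against AON GABAergic nuclei and pPCx PNs against AON GABAergic nuclei. Bars are 95% counting intervals, the grey band marks ratios under 2-fold, grey symbols have fewer than 20 UMIs and an arrowhead marks a bound for a gene at 0 UMIs, as for *Neto1* in AON PNs, at least 183-fold below GABAergic nuclei.

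The higher *Grik1* of the AON library was present in part of its PNs. In 8 of them, those with 10 or more UMIs of the 9 genes the study lists for tufted type T1, the level was 1074 CPM (980 to 1175), with single nuclei from 546 through 1019 to 2065 CPM. All 8 were above the pPCx median of 284 CPM and 5 were above the highest pPCx PN. No pPCx PN met this criterion. The 12 AON PNs with neither this list nor that of type ET2 held 684 CPM (612 to 762), and the deepest nucleus, with 180 of the 839 *Grik1* UMIs, was among them. The criterion counts UMIs, and median depth was 56522 UMIs in the 8 nuclei but 8867.5 UMIs in these 12. Shallow nuclei among the 12 could thus have missed it for lack of depth.

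The higher *Grik4* of the AON library came from a group of 5 nuclei, and mainly from 3 of them. All 5 carried 5 or more UMIs of the 9 genes the study lists for external tufted type ET2. The group held 85 of the 92 *Grik4* UMIs of AON PNs, or 454 CPM (363 to 562). The 3 deepest of the 5 nuclei had 40, 26 and 18 *Grik4* UMIs, or 522, 659 and 327 CPM, and the other 2 had 1 and 0. These other 2 were called PNs on 1 and 2 excitatory marker UMIs. The nucleus with 1 *Grik4* UMI also held 10 astrocyte-marker and 21 oligodendrocyte-marker UMIs. In the pPCx library a single PN met the criterion, and it held 20 of the 42 *Grik4* UMIs, or 469 CPM (287 to 725), with 0 *Grik1* UMIs. Outside these nuclei *Grik4* was at 7.52 CPM in AON PNs and 9.62 CPM in pPCx PNs.

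In the same 5 AON nuclei *Grik1* was lower, at 150 CPM (99.5 to 216) against 872 CPM in the other AON PNs, and *Grik2* was at 160 CPM (108 to 229). Without the nuclei of this criterion in either library, the AON to pPCx log2 ratio of *Grik4* turned from 2.18 to -0.29, and that of AON PNs to GABAergic nuclei from 1.45 to -1.91. Astrocyte-marker UMIs in the 5 nuclei ran from 0 to 938 CPM, the highest in the nucleus with 1 *Grik4* UMI. Their class total was 347 CPM against 210 CPM over all AON PNs, and their part in the *Grik4* level was not tested. The study names *Grik4* among its genes of another external tufted type, ET4. The other 6 genes of that list were at 28.6 CPM in AON PNs, 35.6 CPM in pPCx PNs and 90.9 CPM in the 5 nuclei. The last value rested on 17 UMIs, and the 5 nuclei ran unevenly from 0 through a median of 50.7 to 844 CPM. The T1 and ET2 criteria were set after the values had been seen.

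**Figure D5:**
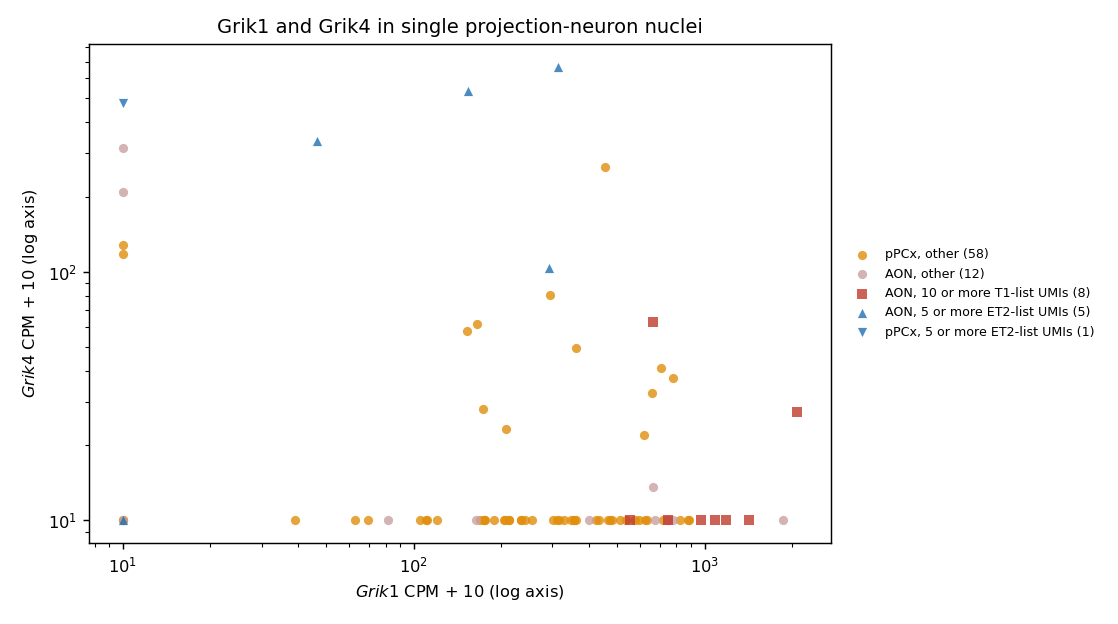
*Grik1* (horizontal) against *Grik4* (vertical) in single PNs, as CPM plus 10 on log axes, with symbols for library and for the T1 and ET2 lists. The 8 AON PNs of the T1 list lie at the right near 0 *Grik4*, and 3 AON PNs and the single pPCx PN of the ET2 list lie at the top, at 327 to 659 CPM of *Grik4*.

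The *Grik2* ratio between the AON and pPCx PNs depended on few nuclei. With equal weight for each nucleus its log2 ratio was 1.10, and without PNs richer in astrocyte markers it was -0.26. Over all AON PNs the astrocyte list ran from 0 to 6362 CPM in single nuclei, and in pPCx PNs from 0 to 564 CPM. *Neto2* kept its direction under all 10 alternatives, with log2 ratios from -2.38 to -1.78.

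The pPCx PNs were divided by the 14 genes the study lists for mitral type M1. Summed, these genes split the nuclei into 37 above 1000 CPM and 22 below, with no nucleus between 971 and 2534 CPM. The study itself, with classifiers built on the activity of transcription factor target sets, assigned most PNs of its pPCx library to type M2 and few to M1. M1-high and M1-low therefore name the level of this gene list and not the types called by the study. *Neto2* was 1.78-fold higher in the M1-low nuclei, an M1-high to M1-low ratio of 0.563 (0.476 to 0.666), at 334 CPM (299 to 371) against 188 CPM (165 to 213), and it was detected in all 22 of them and in 33 of 37 M1-high nuclei. Medians over nuclei were 286 CPM and 153 CPM, and the ranges overlapped, from 89.9 to 947 CPM and from 0 to 548 CPM. *Grik1* was at 397 CPM (359 to 438) in M1-low and 341 CPM (310 to 374) in M1-high nuclei, a ratio of 1.17 (1.02 to 1.34) that turned to the other side with equal weight for each nucleus.

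*Grik2* and *Grik5* did not differ beyond counting error between M1-high and M1-low nuclei, with ratios of 1.22 (0.882 to 1.71) and 1.16 (0.843 to 1.61). *Grik4* was 2.52-fold (1.21 to 5.74) higher in M1-high nuclei, of whose 32 UMIs 20 came from the single nucleus of the ET2 list, and without it the log2 ratio was -0.05. *Grik3* and *Neto1* had 4 against 3 and 5 against 2 UMIs. Of 5 members with 20 or more UMIs, 1 was past 2-fold higher in M1-high nuclei and 0 lower, beside 10.2% and 5.58% of 9686 genes. The AON PNs, at 65.3 CPM of *Neto2*, lay below both pPCx groups.

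Genes for proteins that bind, sort, edit or modify kainate receptors were read in the same classes, 16 of the 17 listed being measured (*Klhl17* was not analysed here). In AON PNs against AON GABAergic nuclei, 0 of 13 with enough UMIs were past 2-fold higher and 5 past 2-fold lower, beside 15.2% and 16.1% of all genes. These were *Nrxn3*, a presynaptic adhesion molecule, 5.27-fold lower (5.09 to 5.46), the PDZ scaffold *Grip1* 4.90-fold (4.23 to 5.70), the scaffold *Dlg1* 3.27-fold (2.68 to 4.02), the scaffold *Cask* 2.34-fold (1.95 to 2.83) and *Grip2* 2.20-fold (1.48 to 3.33). In pPCx PNs the same 5 genes were past 2-fold lower than in AON GABAergic nuclei, by 4.73-fold (4.62 to 4.85) for *Nrxn3* and 5.01-fold (4.49 to 5.61) for *Grip1*, and 0 past 2-fold higher, beside 14.1% lower and 17.8% higher of all genes. Other members of the list differed less or the other way, as *Cdh2*, an adhesion gene, which was 1.82-fold (1.56 to 2.13) and 1.53-fold (1.33 to 1.76) higher in AON and pPCx PNs.

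*Adarb1*, which encodes an RNA-editing enzyme that acts on glutamate receptor transcripts, was the only gene of this list past 2-fold between AON and pPCx PNs. That is 1 of 13 with enough UMIs higher in AON PNs and 0 lower, beside 6.66% and 9.82% of all genes. It was 2.09-fold (1.80 to 2.42) higher in AON PNs, at 332 CPM against 159 CPM. Within pPCx PNs *Adarb1* was 2.04-fold (1.65 to 2.54) higher in M1-low nuclei, whereas *Grip1* was 4.50-fold (3.44 to 5.96) higher in M1-high nuclei. So 1 of 13 was past 2-fold higher and 1 lower in M1-high nuclei, beside 10.2% and 5.58% of all genes. Between GABAergic and remaining AON nuclei, *Nrxn3* was 22.8-fold (20.6 to 25.3), *Adarb1* 17.0-fold (8.17 to 42.7) and *Grip2* 17.0-fold (4.57 to 142) higher in the former, and *Cdh2* was 2.98-fold (2.52 to 3.51) lower. Here 3 of 12 were past 2-fold higher and 2 lower, 1 of them not reported here, beside 18.1% and 21.1% of all genes.

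The genes most like each member were sought over 5 classes, AON PNs, M1-high and M1-low pPCx PNs, AON GABAergic and remaining AON nuclei, by Pearson's r of log2(CPM + 10) among 6708 genes, as a description of 5 points that share libraries. *Grik1* was most like *Esr1*, *Igf1* and *Dusp12*, and *Igf1*, which encodes a growth factor, ran from 132 CPM in AON PNs to 0 in GABAergic nuclei. Between the same classes *Esr1* ran only from 35.8 to 21.2 CPM and *Dusp12* from 28.6 to 14.9 CPM. *Grik2* was most like *Kcnk13*, *Fis1* and *Epha4*, of which *Kcnk13*, a potassium channel gene, had 174 CPM in GABAergic and 129 CPM in remaining nuclei. *Fis1* differed little, at 29.9 CPM in GABAergic nuclei and 17.0 CPM in AON PNs. *Grik3* was most like *Rbfox3*, *Cntnap3* and *Ano3*, and *Rbfox3*, which encodes the neuronal nuclear antigen NeuN, had 638 CPM in GABAergic nuclei but 9.84 CPM in AON PNs. *Neto1* was most like *Adamts19*, *Prr16* and *Snx7*, with 378 CPM of *Adamts19* in GABAergic nuclei and 4.47 CPM in AON PNs. *Grik4* was most like *A330032B11Rik*, *Sltm* and *Trappc9*, *Grik5* most like *Pgap1*, *Rprd1a* and *Ppp4r2*, and *Neto2* most like *Gtf3c1*, *Snrnp40* and *Qrich1*. The r of all these genes was at least 0.982, a value that 5 points make easy to reach. It does not measure the size of the differences between classes, which was small for some of these genes.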

How the data were processed

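The deposited matrices hold UMI counts per gene and nucleus, which the authors made with Cell Ranger (version 3.1.0 in the file headers). The genome build is unclear, since the submitters' processing notes name human builds whereas the gene identifiers are mouse. Of 31053 identifiers 30934 were found in GENCODE M21. Single-nucleus 3′ UMI counts include unspliced RNA only if introns were counted, which is not given in the sources used here.

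Nuclei entered with 1000 or more genes, and a limit of 5% mitochondrial UMIs removed 0 of them. UMIs were summed by class. CPM intervals were exact Poisson, ratio intervals exact conditional binomial and share intervals Clopper-Pearson, all at 95%. Bounds for a count of 0 used a fixed 3 UMIs instead, which is below the upper end of the exact interval. For *Neto1* in AON PNs the bound was 2.68 CPM and that upper end 3.30 CPM. Log2 ratios had 0.5 UMI added to each sum, and 2-fold among genes with 20 or more UMIs over both classes counted as past. Scripts (Python 3.11.15, numpy 2.4.6, scipy 1.17.1, pandas 2.3.3) were tested on simulated data. All 7 members are named in each comparison, partner genes when past 2-fold (at most 6, of which 1 is not reported here), and the 3 genes of highest r for each member. The members and lists were chosen with earlier results of these data known.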

Additional observations from a re-analysis of the deposited data

Results flagged for a closer look

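Barcodes below the limit of 1000 genes, which no comparison used, still held member UMIs. In the 86 such barcodes of the AON library there were 51 *Grik1* UMIs in 12 barcodes, or 539 CPM (401 to 708), against 317 CPM in all kept AON nuclei. There were 15 *Grik2* UMIs in 5 barcodes (158 CPM against 957 CPM in kept nuclei), 18 *Neto2* UMIs in 5 barcodes (190 CPM against 105 CPM) and 4 *Grik5* UMIs in 3 barcodes (42.3 CPM against 81.9 CPM). In the 11 such barcodes of the pPCx library there were 5 *Grik5* UMIs in 2 barcodes, or 468 CPM (152 to 1092). Each of these counts exceeded the 3 UMIs that a count of 0 allows. Single barcodes gave much of some of them: 23 of the 51 *Grik1* UMIs, 12 of the 18 *Neto2* UMIs and 4 of the 5 *Grik5* UMIs of the pPCx library.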

How the results depend on the processing

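No paired analysis was possible because each injection site had 1 library. Of member log2 ratios past 2-fold, those of *Grik4* changed sign without PNs of the ET2 list, an alternative chosen after seeing the data, to -0.29 for AON against pPCx PNs, -1.91 for AON PNs against GABAergic nuclei and -0.05 for M1-high against M1-low nuclei. Ratios under 2-fold, or on fewer than 20 UMIs, also changed sign: *Grik2* for AON against pPCx PNs (0.17) under 3 of 10 alternatives, to -0.35 at the lowest, *Grik1* for GABAergic against remaining nuclei (0.10) under 3 of 8, to -0.68, and for M1-high against M1-low nuclei *Grik1* (-0.22) under 1 of 10, to 0.21, and *Grik3* (0.02) under 3 of 10, to -0.85. *Grik1* for AON against pPCx PNs fell under 2-fold in 2 of 10, at 0.98 and 0.93. *Neto2* for GABAergic against remaining nuclei stayed past 2-fold in 7 of 8, with 0.94 as its lowest log2 ratio. In M1-high against M1-low nuclei the number of members past 2-fold, 1 in the values given, was 2 with equal weight for each nucleus and without nuclei over 3 times the median depth, and 0 without PNs of the ET2 list, where 5 UMIs rather than 0.5 were added, and where genes needed 50 UMIs. Without the limit on genes per nucleus there were 48 AON PNs and 89 remaining AON nuclei, and with GABAergic nuclei called from 1 UMI there were 17 remaining AON nuclei. The ratios of *Grik1*, *Grik2*, *Grik3* and *Neto1* between PNs and GABAergic nuclei stayed past 2-fold in the same direction under all 10 alternatives in each library's PNs. Counts under 20 UMIs limit *Grik3* and *Neto1* in PNs, and the spread between animals is not covered.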
